A study of Mus musculus with 5 samples.

Results

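The NK cells described here were 478 of the 41191 mouse cells of the series, taken from foreign body granulomas and from thioglycollate-elicited macrophages. They were selected on their own transcripts within the 1557 cells that the authors deposited as the class NK/T. A cell was chosen by at least 1 unique molecular identifier (UMI, the tag that counts a captured transcript once) over the NK receptor genes Ncr1, Klrb1c and Klre1. It also had 0 UMIs of the CD3 genes Cd3d, Cd3e and Cd3g and fewer than 2 over Tcrg-C1, Trdc and Cd163l1, which mark gamma-delta T cells. The levels of these genes therefore chose the cells and are given as a description.

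Natural killer (NK) cells are innate lymphocytes that kill target cells by releasing perforin and granzymes from cytotoxic granules. They read activating and inhibitory receptors on their surface, and once activated they secrete interferon gamma and chemokines, among them XCL1, CCL3, CCL4 and CCL5, that act on macrophages, dendritic cells and other leukocytes. A foreign body granuloma is the wall of macrophages, fibroblasts and vessels that forms around material that cannot be removed.

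The series holds 5 droplet-based 3' RNA libraries from mice, 1 for each group. The control library was prepared from thioglycollate-elicited macrophages, which are collected from the peritoneal cavity after an irritant, and the other 4 come from foreign body granulomas, 2 around a sponge and 2 around silk, 1 at 2 weeks and 1 at 4 weeks for each material. The sources used here give no strain, age, sex or number of animals and do not say how cells were freed from tissue. With 1 library in each group no difference between groups could be tested, and the NK cells of a library are not replicates. All intervals below are 95% intervals that cover counting error only. The control is another tissue as well as another treatment, so a difference from it cannot be told apart from a difference of site, and the 4 comparisons with it share this 1 library. Values for the 5 libraries stand in this order: the control, then sponge at 2 and 4 weeks, then silk at 2 and 4 weeks.

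The libraries held 129, 181, 67, 81 and 20 NK cells with 394023, 823304, 251026, 265252 and 56751 UMIs in all. The median NK cell carried 2277, 3479, 2791, 2504 and 2755.5 UMIs. The silk library at 4 weeks thus had the fewest UMIs, and a single cell weighs most there. Of all 41191 cells, 306 carried a barcode that occurs in more than 1 library, among them 5 NK cells, and no NK cell shared a barcode with another NK cell. Gene levels are CPM: the UMIs of a gene summed over the NK cells of a library, per 1000000 of all their UMIs.

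The promoters of 5 genes on which the results turn are shown first, since these genes encode the granule proteases, the chemokine, the cytokine and the nuclear receptor that are followed below. Each is the run of 250 bases before the start of transcription that RefSeq gives, in build GRCm38.p6 and written 5′ to 3′ on the strand of the gene. Gzmb (granzyme B) is shown from chr14:56262335-56262584, minus strand, and Gzmc (granzyme C) from chr14:56234658-56234907, minus strand. Xcl1 (lymphotactin) is shown from chr1:164935523-164935772, minus strand, Ifng (interferon gamma) from chr10:118440796-118441045, plus strand, and Nr4a3 (a nuclear receptor induced by antigen receptor and other signals) from chr4:48045055-48045304, plus strand. The runs of Xcl1 and Nr4a3 reach into the genes as GENCODE M21, used for gene positions below, places their starts, and the marked match of Nr4a3 lies in that overlap. Capitals mark matches, on either strand, to 5 motifs of transcription factors that act in lymphocytes.
Gzmb: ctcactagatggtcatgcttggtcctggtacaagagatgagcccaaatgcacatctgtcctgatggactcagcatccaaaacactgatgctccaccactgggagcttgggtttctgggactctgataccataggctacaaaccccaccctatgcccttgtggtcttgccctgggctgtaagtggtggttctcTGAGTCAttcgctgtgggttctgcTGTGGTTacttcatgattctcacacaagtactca
Gzmc: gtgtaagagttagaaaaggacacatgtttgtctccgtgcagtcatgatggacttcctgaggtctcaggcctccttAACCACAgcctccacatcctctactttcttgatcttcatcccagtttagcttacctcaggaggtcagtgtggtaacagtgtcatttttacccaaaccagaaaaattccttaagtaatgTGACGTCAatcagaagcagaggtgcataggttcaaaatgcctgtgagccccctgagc
Xcl1: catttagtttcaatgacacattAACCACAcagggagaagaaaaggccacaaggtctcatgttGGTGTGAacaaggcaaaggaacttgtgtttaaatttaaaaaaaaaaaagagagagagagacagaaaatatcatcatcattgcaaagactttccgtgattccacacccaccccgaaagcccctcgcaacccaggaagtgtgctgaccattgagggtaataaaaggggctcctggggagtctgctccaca
Ifng: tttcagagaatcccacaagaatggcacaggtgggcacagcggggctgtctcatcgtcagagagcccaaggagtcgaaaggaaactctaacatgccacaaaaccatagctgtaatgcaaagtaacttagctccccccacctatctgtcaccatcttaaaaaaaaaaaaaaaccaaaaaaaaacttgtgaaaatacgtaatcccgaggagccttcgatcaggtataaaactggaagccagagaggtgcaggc
Nr4a3: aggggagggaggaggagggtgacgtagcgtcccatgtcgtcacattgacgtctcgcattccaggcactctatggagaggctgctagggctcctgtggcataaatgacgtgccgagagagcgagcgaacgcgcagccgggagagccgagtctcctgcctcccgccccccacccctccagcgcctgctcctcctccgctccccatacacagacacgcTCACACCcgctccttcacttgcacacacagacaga

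The motifs searched were AP-1 (TGANTCA), CRE (TGACGTCA), the NR4A site NBRE (AAAGGTCA), T-box (GGTGTGA) and RUNX (TGTGGTT), and no marked match overlaps another. The Gzmb promoter held an AP-1 match at 58 to 52 bases and a RUNX match at 34 to 28 bases before the start. The Gzmc promoter held a CRE match at 57 to 50 bases and a RUNX match at 175 to 169 bases before the start. In the Xcl1 promoter a T-box match stood at 188 to 182 bases and a RUNX match at 228 to 222 bases before the start, and in that of Nr4a3 a T-box match at 35 to 29 bases. No motif matched the Ifng run. Over 32851 RefSeq promoters of this length, AP-1 matched in 6.75%, CRE in 1.55%, NBRE in 1.34%, T-box in 3.33% and RUNX in 4.40%. A match describes the letters of this window and is not a measured site.

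The label was checked against markers that the rule did not use. Nkg7, a granule protein, stood at 1398, 1696, 1737, 1602 and 1974 CPM and was seen in 89.1, 96.7, 95.5, 93.8 and 90.0% of NK cells. Eomes, a transcription factor of NK cells, stood at 475, 247, 406, 441 and 916 CPM, and Prf1 (perforin) at 546, 428, 785, 573 and 1198 CPM. In the CD3 cells of the same libraries, meaning cells of the class NK/T with at least 1 CD3 UMI, Eomes reached at most 50.9 CPM and Prf1 at most 78.0 CPM. Both genes were therefore far higher in the chosen cells than in their CD3-bearing neighbours in every library. Cd4, Cd8a, Cd8b1, Cd6 and Cd163l1 were at 0 in the NK cells of every library, and so were the ILC3 genes Il22 and Il23r and the type 2 cytokines Il5 and Il13. Trac, the constant chain of the alpha-beta T cell receptor, gave 1, 7, 2, 3 and 2 UMIs in all, against 243, 314, 347, 548 and 411 CPM in CD3 cells. Trbc1 was present at 322, 417, 602, 498 and 581 CPM, close to its level in CD3 cells (383, 444, 524, 546 and 600.4 CPM). Il1rl1, the ILC2 receptor for interleukin-33, gave 1, 6, 1, 0 and 0 UMIs and Cxcr6, a receptor of ILC1 and resident T cells, gave 2, 7, 2, 1 and 0. Itga1, which marks tissue-resident ILC1, gave 1, 30, 2, 10 and 0 UMIs, and cells with both Eomes and Itga1 numbered 0, 6, 1, 4 and 0. The label NK cells is used on these values.

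Cells near the limits of the rule are described once. Inside it, 71 cells had exactly 1 NK receptor UMI, 69 had 2 and 338 had 3 or more. Just outside, 138 cells of the class NK/T carried neither an NK receptor nor a CD3 UMI, with Gzma at 1406 CPM, Gata3 at 561 CPM and Il1rl1 at 480 CPM. The cells just inside had Gzma at 2836 CPM, Gata3 at 109.8 CPM and no UMI of Il1rl1. In 13 further cells an NK receptor was joined by exactly 1 CD3 UMI, and their Gzma stood at 2024 CPM. On the gamma-delta limit, 61 cells inside had exactly 1 such UMI and 26 cells outside had 2 or more, with Gzma at 3064 and 3327 CPM.

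NK cells made up 1.43% (1.19 to 1.69) of all cells in the control, 1.47% (1.26 to 1.69) and 0.870% (0.675 to 1.10) in sponge at 2 and 4 weeks, and 0.792% (0.629 to 0.983) and 1.07% (0.653 to 1.64) in silk. At 2 weeks the share in silk minus that in sponge was −0.674 points (interval of the difference −0.949 to −0.399). Within sponge the share at 4 weeks minus that at 2 weeks was −0.596 points (−0.889 to −0.290). Both differences thus lay below 0 beyond counting error. Within silk the 4-week share differed from the 2-week share by 0.276 points, with an interval from −0.145 to 0.872 that takes in 0. The granulomas also hold fibroblasts and vessels that the control lacks, and of leukocytes alone NK cells made up 1.43%, 2.02%, 1.22%, 0.934% and 1.48%. Fewer NK cells and more of other cells cannot be told apart in these shares.

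Among the cells of the class NK/T the NK share was 35.1% (30.3 to 40.3), 39.2% (34.7 to 43.8), 21.8% (17.3 to 26.9), 30.2% (24.8 to 36.1) and 13.1% (8.17 to 19.5). The share at 4 weeks minus that at 2 weeks was −17.4 points in sponge (−23.6 to −10.8) and −17.2 points in silk (−24.4 to −9.02). In both materials the 2-week granuloma therefore held relatively more NK cells among its lymphocytes than the 4-week granuloma. The rule reads UMIs and so loses shallow cells: the median CD3 cell carried 3189, 3294, 2538.5, 2649.5 and 2398 UMIs.

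**Figure D1:**
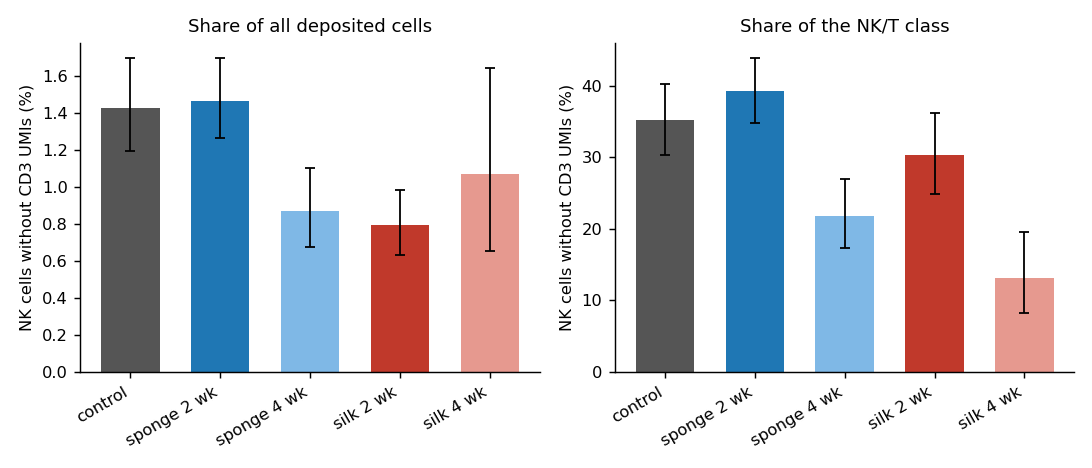
Bars give NK cells as a percent of all deposited cells (left) and of the deposited class NK/T (right) in each library, with exact 95% intervals as lines; both axes start at 0. On the right the 2 granulomas at 4 weeks, at 21.8% and 13.1%, stand below those at 2 weeks, at 39.2% and 30.2%.

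The granule proteases Gzma and Gzmb were higher in the NK cells of all 4 granulomas than in those of the control. Gzma (granzyme A; chr13:113093825-113100981, minus strand) stood at 2063, 4618, 3832, 4336 and 6167 CPM. The control was lowest and silk at 4 weeks highest, with log2 ratios to the control of 1.16 (1.05 to 1.27), 0.89 (0.76 to 1.03), 1.07 (0.94 to 1.20) and 1.58 (1.39 to 1.76). Gzma was called, by the rule given below, in all but sponge at 4 weeks. Of all Gzma UMIs of a library, the NK cells held 85.2, 80.4, 90.8, 82.7 and 82.5%, although they were at most 1.47% of its cells. In CD3 cells Gzma stood at 44.4, 327, 4.57, 131 and 106 CPM and in the monocyte, macrophage and dendritic cell class (Mo-Mac/DC) at no more than 0.498 CPM. With each cell thinned to 1000 UMIs, 73.6, 74.0, 58.5, 84.0 and 83.3% of NK cells carried a Gzma UMI, so the level differed more than the share of cells with the transcript. Among Mo-Mac/DC cells, which should lack it and had medians of 7720.5, 4787, 3182, 4350 and 4260.5 UMIs, 0.0506, 0.283, 0.0827, 0.0664 and 0.0904% had a UMI of Gzma without thinning.

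Gzmb (granzyme B; chr14:56258838-56262260, minus strand), whose product cuts caspases in target cells, differed most among the proteases that all 4 granulomas shared. It stood at 112, 1121, 1024, 671 and 758 CPM from 44, 923, 257, 178 and 43 UMIs. The control was lowest, with ratios of 10.0, 9.17, 6.01 and 6.79-fold in the 4 granulomas, or 3.31 (2.89 to 3.80), 3.18 (2.73 to 3.69), 2.57 (2.10 to 3.10) and 2.76 (2.12 to 3.40) on the log2 scale. The share of NK cells with a Gzmb UMI was 16.3, 70.2, 62.7, 50.6 and 55.0%, and 8.26, 46.2, 53.8, 35.8 and 27.8% after thinning. Among Mo-Mac/DC cells 0.0253, 0.121, 0.0621, 0.106 and 0% had a UMI, so the shares in NK cells stood far over that background. NK cells held 69.8, 53.3, 66.8, 41.5 and 52.4% of each library's Gzmb UMIs, and CD3 cells carried 6.34, 634, 107, 325 and 89.6 CPM. The CD8 T cells among them (50, 53, 7, 11 and 8 cells) stood at 12.5, 870.5, 73.2, 307 and 60.5 CPM.

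The share of NK cells in which both transcripts were seen was lowest in the control. Both transcripts were seen in 19 of 129 cells in the control, 120 of 181 and 30 of 67 in sponge at 2 and 4 weeks, and 38 of 81 and 10 of 20 in silk. Gzma without Gzmb was seen in 86, 38, 14, 35 and 7 cells. These are counts at unequal depth. After thinning, the Gzma share of both silk libraries exceeded the Gzmb share by more than the Gzmb share itself. Thinned cells showing Gzma alone thus outnumbered thinned cells showing both there. At full depth the order was the reverse, at 35 against 38 and 7 against 10, so the order depends on depth.

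Gzmc (granzyme C; chr14:56231441-56234656, minus strand) lies close to Gzmb in the granzyme cluster of chromosome 14 and was carried by few cells. It gave 1, 672, 58, 27 and 0 UMIs, or 2.54, 816, 231, 102 and 0 CPM, in 1, 23, 6, 6 and 0 cells. Sponge at 2 weeks held most of it, and 1 cell there held 31.2% of the Gzmc UMIs. Without the cell with the most UMIs the levels were 0, 567, 139, 61.5 and 0 CPM. At 0 UMIs, silk at 4 weeks allows up to 52.9 CPM, at least 4.37-fold below sponge at 4 weeks if UMIs are independent. The UMIs lay in few cells, however, 6 of 67 in sponge at 4 weeks. With 20 cells in silk at 4 weeks, the 0 there therefore sets no firm limit on the fold. The neighbouring Gzmd gave 0, 45, 0, 0 and 0 UMIs, nearly all (95.6%) in 1 cell, and Gzme gave 0, 9, 0, 0 and 0. These 3 genes are related copies, and reads may have been assigned among them or dropped, so their split is uncertain.

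The 23 Gzmc-bearing cells of sponge at 2 weeks are described next, beside the other 158, from which Gzmc itself set them apart. Thy1, a surface protein of T cells and some NK cells, stood at 375 CPM (288 to 481) against 125 CPM (99.1 to 155). Ctla2a, a cysteine protease inhibitor, stood at 2044 against 1480.3 CPM. Gzmb stood at 1585 CPM against 1005 CPM, but at 1027 against 919 CPM without the highest cell of each set. Ccl4 went the other way, at 66.5 CPM against 915 CPM, as did Ly6c2, a surface antigen of mature NK cells, at 30.2 against 274 CPM, and the receptor Klra4, at 181 against 503 CPM. Its related copy Klra8 differed less, at 429 CPM (335 to 542) against 561 CPM (505 to 621). Eomes was lower in the Gzmc-bearing cells, at 139 CPM (88.2 to 209) against 274 CPM (235 to 317). Itga1 stood at 54.4 against 31.9 CPM, but at 26.4 against 26.2 CPM without the highest cell of each set. The Thy1 level without the highest cell of each set was 309.7 against 116 CPM, and the Ccl4 level 43.8 against 793 CPM. The Gzmc-bearing cells were deeper, with a median of 5451 UMIs against 3045.5, and 4 of them were cycling against 13 of the others. A deeper cell is more likely to show a Gzmc UMI, and the part of depth in these values was not tested.

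Prf1 (perforin), which forms the pore, was not higher than the control in every granuloma, unlike Gzma and Gzmb. It stood at 546 (475 to 624) CPM in the control, 428 (384 to 475) and 785 (679 to 902) in sponge and 573 (486 to 672) and 1198 (930.5 to 1519) in silk. Sponge at 2 weeks was lowest, with a log2 ratio to the control of -0.35, a size that the other scaling would take to near 0. Against the control Prf1 was called higher in silk at 4 weeks alone, just past the limit of the rule given below. In both materials Prf1 was higher at 4 than at 2 weeks, with log2 ratios of 0.88 (0.62 to 1.13) and 1.07 (0.63 to 1.49), neither of which was called. Serpinb9, the intracellular inhibitor that shields killer cells from their own granzyme B, stood at 223, 613, 609, 1203 and 1339 CPM. It was lowest in the control and higher in silk than in sponge at both times, with log2 ratios of silk over sponge of 0.97 (0.76 to 1.18) and 1.14 (0.72 to 1.54). Fasl, a death ligand, gave 36, 100, 32, 34 and 12 UMIs, and Tnfsf10 (TRAIL) gave 1, 8, 3, 2 and 1.

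A gene was called when it differed at least 2-fold on the scale log2((CPM + 100)/(CPM + 100)) with at least 20 UMIs in the higher library. Against the control, 65 of 4500 genes (1.44%) were called higher and 62 (1.38%) lower in sponge at 2 weeks. In sponge at 4 weeks 94 of 3469 (2.71%) were higher and 62 (1.79%) lower. In silk at 2 weeks 117 of 3527 (3.32%) were higher and 39 (1.11%) lower, and in silk at 4 weeks 75 of 2469 (3.04%) were higher and 124 (5.02%) lower. The limit of 20 UMIs asks for more CPM in silk at 4 weeks, so its higher and lower counts are not on equal terms. Scaling by the median of ratios in place of CPM would add 0.34, −0.10, −0.06 and −0.34 to the log2 ratios of the 4 granulomas to the control. It would add −0.32 and −0.18 to those of silk over sponge and −0.27 and −0.22 to those of 4 over 2 weeks. With that scaling sponge at 2 weeks had 104 genes higher and 38 lower than the control, and silk at 4 weeks 55 higher and 160 lower. In all 4 granulomas together 27 of 2300 genes (1.17%) were higher and 31 (1.35%) lower. Of the list of cytotoxic granule genes and death ligands, 4, 4, 5 and 5 of 16, 13, 15 and 11 tested members were higher and 1 (Lamp1) was lower in each granuloma. Its median log2 ratio over members was 0.46, 0.53, 0.72 and 1.18, beside medians of −0.07, −0.09, −0.08 and −0.28 over all genes tested. Gzmb and Serpinb9 were the members called higher in every granuloma, and Serpinb9 was no longer so without macrophage-bearing NK cells, described below. Lamp1, a lysosomal membrane protein, was higher in Mo-Mac/DC cells (at least 958 CPM) than in NK cells (at most 787 CPM).

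**Figure D2:**
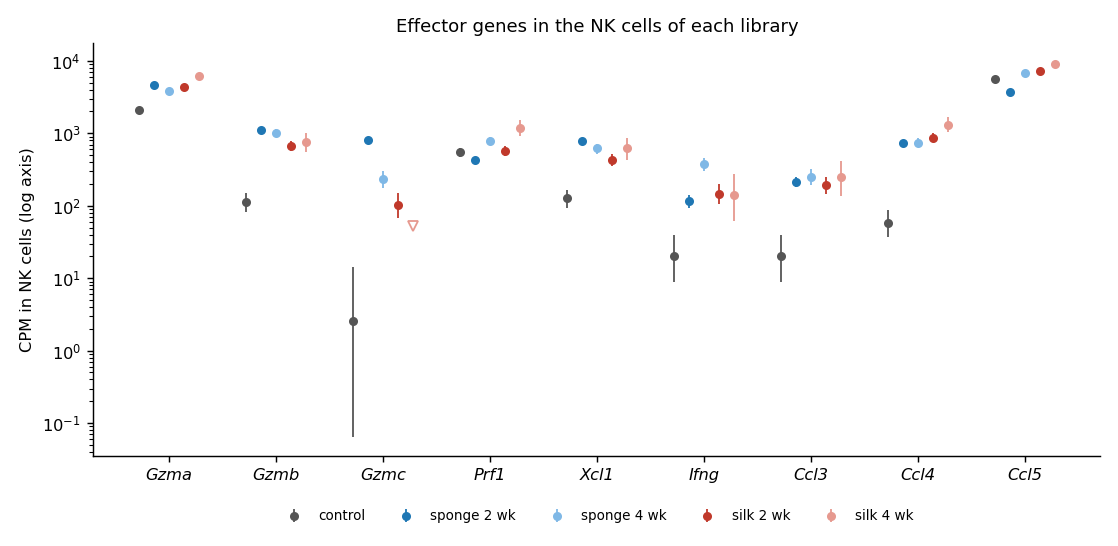
Points give the CPM (log axis) of 9 effector genes in the NK cells of each library, lines the exact 95% counting interval, and the open triangle the level that 3 UMIs would give where none was counted. Gzmb, Xcl1, Ifng, Ccl3 and Ccl4 were lowest in the control, while Prf1 and Ccl5 were lowest in sponge at 2 weeks.

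Among secreted signals, Xcl1 and Ccl4 were higher in the NK cells of every granuloma than in those of the control. Xcl1 (lymphotactin; chr1:164931644-164935527, minus strand), which draws cross-presenting dendritic cells, stood at 127, 791, 617, 434 and 617 CPM. The control was lowest, with log2 fold changes of 2.63 (2.22 to 3.08), 2.27 (1.81 to 2.77), 1.76 (1.28 to 2.28) and 2.29 (1.61 to 2.93). A single cell held 38.6% of the Xcl1 UMIs of sponge at 2 weeks, and without the cell with the most UMIs the levels were 94.9, 491, 501, 393 and 521 CPM. NK cells held 68.5, 64.6, 79.9, 75.7 and 94.6% of each library's Xcl1 UMIs, and Mo-Mac/DC cells carried at most 0.0679 CPM.

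Ccl4 (chr11:83662584-83664683, plus strand), a chemokine that draws macrophages, T cells and NK cells, stood at 58.4, 745, 741, 875 and 1322 CPM. Every granuloma was over the control, with log2 fold changes of 3.64 (3.07 to 4.34), 3.64 (3.04 to 4.36), 3.88 (3.28 to 4.59) and 4.48 (3.81 to 5.24). Unlike Xcl1, Ccl4 came mostly from other cells: NK cells held 0.664, 1.09, 1.93, 2.20 and 5.63% of its UMIs, and Mo-Mac/DC cells carried 44.9, 696, 194, 69.1 and 120.4 CPM. Sponge at 2 weeks had nearly as high a Ccl4 level in Mo-Mac/DC cells as in NK cells, and the part of free transcripts in the NK level was not tested. Its neighbour Ccl3 stood at 20.3, 213, 251, 192 and 247 CPM, below the Mo-Mac/DC level in the control and in sponge at 2 weeks (52.6, 244, 94.5, 53.9 and 78.8 CPM).

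Ccl5, a chemokine made by T and NK cells, stood at 5535, 3773, 6899.7, 7223 and 8987 CPM. Sponge at 2 weeks was lowest, below the control by a log2 ratio of -0.55 (-0.63 to -0.47), and the other granulomas were above it, so Ccl5 did not separate granulomas from the control. Median-of-ratios scaling would add 0.34 to the ratio of sponge at 2 weeks, which would stay below 0. CD8 T cells carried 1739.9, 8971, 1000.4, 3029 and 9079.9 CPM.

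Ifng (chr10:118441046-118445892, plus strand) gave 8, 96, 95, 39 and 8 UMIs, or 20.3, 117, 378, 147 and 141 CPM, in 6, 41, 24, 18 and 4 cells. Its log2 ratios to the control were 2.44 (1.49 to 3.77), 4.14 (3.18 to 5.47), 2.79 (1.74 to 4.17) and 2.80 (1.18 to 4.41), and it was called in sponge at 4 weeks and silk at 2 weeks. Sponge at 4 weeks was highest, over sponge at 2 weeks by 1.70 (1.27 to 2.12), and NK cells held 53.3, 49.5, 88.0, 79.6 and 50% of the Ifng UMIs of their library. Of the Ifng UMIs of sponge at 4 weeks, 1 cell held 22.1%, and the level without it was 301 CPM. Tnf gave 0, 25, 5, 3 and 0 UMIs in NK cells, which held at most 0.225% of it, Csf1 (macrophage colony stimulating factor) gave 0, 16, 1, 6 and 0, and Csf2 gave 1, 1, 2, 1 and 0. NK cells thus held a large share of Ifng and Xcl1 and next to none of Tnf.

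Of the list of cytokines and chemokines, 3, 4, 5 and 3 of 9, 7, 7 and 5 tested members were higher than in the control, beside the 1.44%, 2.71%, 3.32% and 3.04% of all genes. The median log2 ratio of its measured members was 2.53, 1.82, 1.82 and 1.83. With members at 0 UMIs set to their bound the first of these was 2.13. Ltb (lymphotoxin beta) was called lower in silk at 4 weeks.

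Nr4a3 (chr4:48045153-48086447, plus strand), a nuclear receptor that lymphocytes switch on early after a signal, ranked first among the named genes higher in every granuloma. It stood at 15.2, 545, 705, 1244 and 1163 CPM, from 6, 449, 177, 330 and 66 UMIs. The control was lowest, with log2 fold changes of 5.05 (4.03 to 6.62), 5.42 (4.38 to 7.0), 6.24 (5.21 to 7.81) and 6.15 (5.06 to 7.75). After thinning, 1.65, 32.9, 47.7, 69.1 and 55.6% of NK cells carried Nr4a3. Nr4a1 stood at 12.7, 225, 498, 520.3 and 722 CPM and Nr4a2 at 38.1, 529.6, 1123, 701 and 1568 CPM, again lowest in the control. Crem, a repressor that answers cyclic AMP, stood at 30.5, 488, 422, 652 and 793 CPM, Kdm6b, a histone H3 lysine demethylase, at 27.9, 370.5, 602, 826 and 1128 CPM, and Fosl2, an AP-1 subunit, at 86.3, 550.2, 984, 935 and 1286 CPM.

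These genes were not particular to NK cells. In CD3 cells Nr4a3 stood at 12.7, 502, 839, 769 and 1015 CPM and in Mo-Mac/DC cells at 1.40, 183, 164, 117 and 174 CPM. Crem stood at 72.3, 524, 573, 626 and 581 CPM in CD3 cells, Fosl2 at 62.1, 557, 947, 784 and 972 CPM and Kdm6b at 41.8, 428, 526, 588 and 670.1 CPM, each lowest in the control there too. Genes that answer tissue digestion leaned the same way: the list of 23 dissociation stress genes summed to 7444, 8731, 12031, 11306 and 13339 CPM in NK cells, and 2, 5, 6 and 6 of 23, 19, 22 and 17 tested members were higher than in the control and none lower, beside the 1.44%, 2.71%, 3.32% and 3.04% of all genes called higher. Its median log2 ratio was 0.50, 1.09, 0.91 and 1.13. The part of handling in these genes was not tested.

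**Figure D3:**
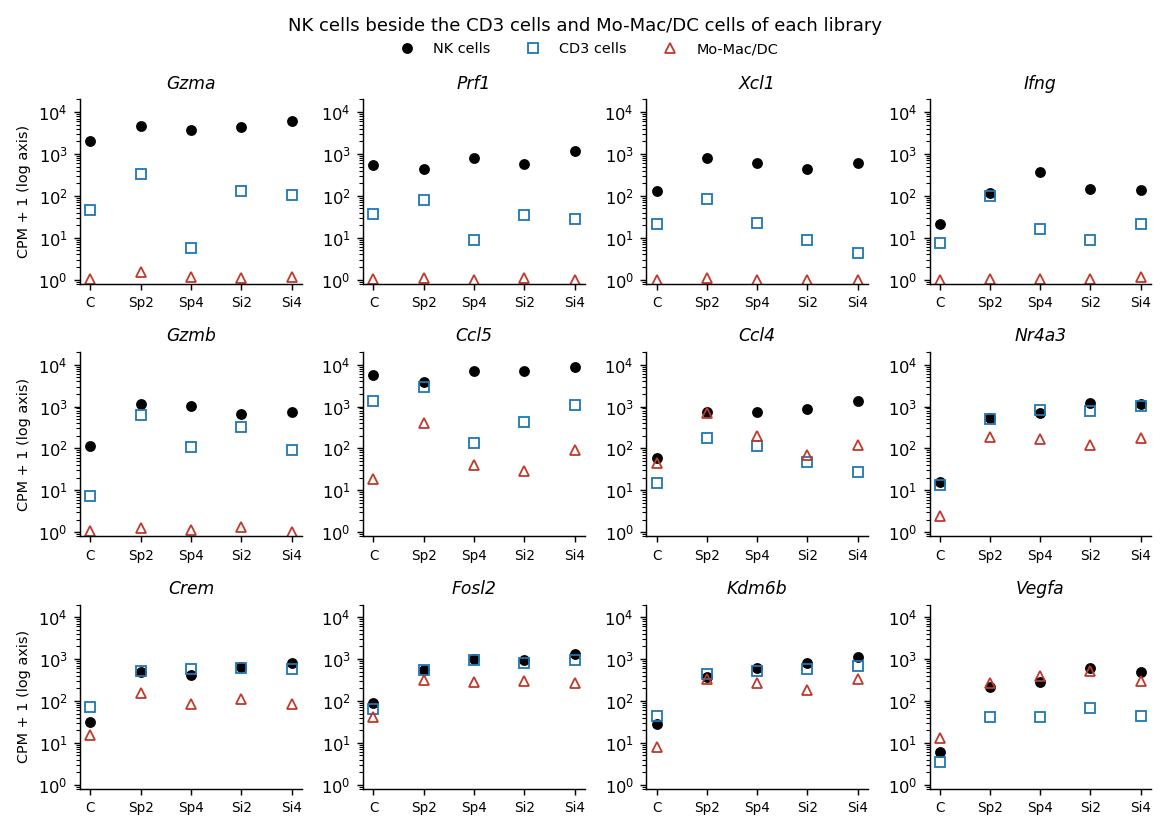
Each panel gives 1 gene as CPM + 1 (log axis) in NK cells (filled circles), CD3 cells of the class NK/T (open squares) and Mo-Mac/DC cells (open triangles) for the control (C), sponge at 2 and 4 weeks (Sp2, Sp4) and silk at 2 and 4 weeks (Si2, Si4). Gzma, Prf1 and Xcl1 lay over both other classes in every library, whereas Nr4a3, Crem, Fosl2 and Kdm6b were lowest in the control in all 3 classes.

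Of the 24 genes in the list of activation and checkpoint genes, 5, 6, 6 and 6 of 14, 13, 10 and 8 tested were higher than in the control and none lower, again beside 1.44%, 2.71%, 3.32% and 3.04% of all genes. Nr4a1, Nr4a2, Nr4a3, Kdm6b and Odc1, the entry enzyme of polyamine synthesis, were higher in every granuloma, and the list's median log2 ratio was 1.35, 2.33, 1.46 and 2.26. The checkpoint receptors themselves were rare in NK cells. Pdcd1 (PD-1) gave 0, 8, 0, 0 and 0 UMIs, Lag3 gave 0, 16, 1, 0 and 0 and Tigit gave 0, 13, 0, 2 and 0, while CD3 cells of the granulomas carried 127, 230.0, 87.6 and 163 CPM of Pdcd1.

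The 27 genes higher in all 4 granulomas included further regulators. Rgs1 and Rgs2 dampen signals of chemokine receptors, and Rgs1 stood at 114, 685, 522, 535 and 652 CPM in NK cells. Smad7, an inhibitor of TGF-beta signalling, stood at 83.8, 406, 442, 501 and 581 CPM, Vps37b, a part of the ESCRT sorting machinery, at 439, 1230.4, 1856, 1877 and 2696 CPM, and Dgat1, which makes triglycerides, at 25.4, 189, 509.9, 369 and 722 CPM. For all 3 the control was lowest and silk at 4 weeks highest. Nfkbia and Nfkbid, inhibitors of NF-kappa B, stood at 139.6, 455, 518, 709 and 652 and 5.08, 124, 179, 256 and 423 CPM. In 8 of the 27 genes the Mo-Mac/DC level was above the NK level in a granuloma: Nfkbia, Nfkbiz, Nr4a1, Odc1, Rel, Rgs2, Slc3a2 and Vegfa. Without the NK cells that had over 1% of UMIs from macrophage markers, 23 of the 27 were still called, and Dusp5, Gem, Prdx6 and Serpinb9 were not.

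Txnip, Klf3 and Ccr2 were the 3 of 31 genes lower in every granuloma whose level in the control was not below that of Mo-Mac/DC cells. Txnip, an inhibitor of glucose uptake, stood at 706, 165, 104, 124 and 35.2 CPM, with log2 fold changes of -2.09 (-2.40 to -1.79), -2.74 (-3.41 to -2.19), -2.48 (-3.07 to -1.98) and -4.00 (-7.38 to -2.46). Klf3, a transcriptional repressor, stood at 444, 75.3, 95.6, 98.0 and 106 CPM, and Ccr2, a receptor for monocyte chemokines that some NK cells use, at 916, 309, 251, 256 and 352 CPM. The control was highest for all 3. Txnip and Klf3 were also highest in the control in CD3 cells (595, 135, 111, 91.4 and 119 CPM and 522, 69.3, 77.7, 135 and 169 CPM), whereas Ccr2 was lowest there in the control (202, 321, 475, 468 and 488 CPM). The lower level of Ccr2 in granulomas was thus seen in NK cells and not in CD3 cells, a difference that could not be tested with 1 library in each group.

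**Figure D4:**
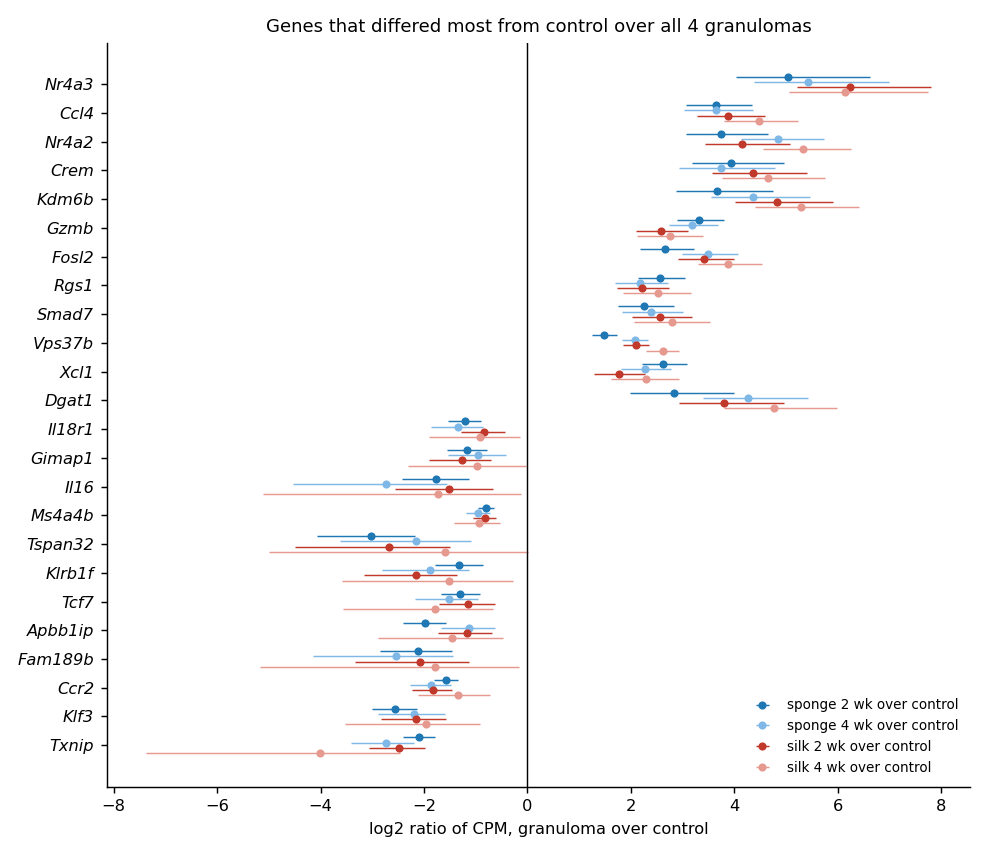
Points give the log2 ratio of CPM in the NK cells of each granuloma over the control, with 95% counting intervals, for the 12 highest and 12 lowest named genes, ranked by the smallest change over the 4 granulomas. Nr4a3 reached 5.05 to 6.24 and Gzmb 2.57 to 3.31, and among the lowest Txnip reached −2.09 to −4.00.

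The other 28 genes called lower stood higher in Mo-Mac/DC cells than in NK cells of the control, among them Apoe, Lyz2, C1qa and Ctsd. The 16 macrophage markers summed to 18311, 4056, 3024, 5323 and 863 CPM in NK cells, with 0, 0, 0, 1 and 10 of them at 0, and 9 of the 14 tested were lower in every granuloma. Lyz2, which macrophages carry at 19192 CPM in the control, stood at 5434, 1257, 693, 1674 and 52.9 CPM in NK cells. Without NK cells over 1% of macrophage-marker UMIs, which were 11, 7, 4, 7 and 0 cells, 9 genes were lower in every granuloma and Txnip, Klf3 and Ccr2 were among the 5 shared with the 31. Markers of the other neighbours moved with the library as well: fibroblast markers summed to 0, 703, 458, 196 and 123 CPM and neutrophil markers to 20.3, 109, 139, 1734 and 17.6 CPM. In sponge at 2 weeks 51.4% of NK cells had a UMI of the collagen gene Col1a1, against 0% in the control. Endothelial markers summed to 38.1, 68.0, 43.8, 52.8 and 35.2 CPM and B cell markers to 83.8, 51.0, 104, 86.7 and 123 CPM.

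Most receptors by which NK cells see their targets were not called in any granuloma, and those that were called were mostly lower. Of the list of NK receptors, 0, 0, 0 and 1 of 19, 17, 17 and 15 tested members were higher than in the control and 1, 2, 3 and 1 lower, beside the 1.38%, 1.79%, 1.11% and 5.02% of all genes called lower. The lower ones were Klrk1 in sponge at 2 weeks, Fcgr3 and Klrb1f in sponge at 4 weeks, Klra4, Klrb1f and Klrk1 in silk at 2 weeks and Fcgr3 in silk at 4 weeks, and the higher one was Ly6c2 in silk at 4 weeks. Fcgr3 is also a macrophage gene, and macrophage markers were highest in the NK cells of the control. The part of macrophage transcripts in the Fcgr3 calls was not tested. The median log2 ratio of the list was -0.25, -0.23, -0.33 and 0.00, and no member was called in 1 direction in all 4 granulomas. The 3 receptor genes of the rule are among the members of this list. Every cell was chosen by a UMI of at least 1 of them, so the list medians are a description. None of the 3 was among the called members. Under median-of-ratios scaling the first of these medians was 0.09, on the other side of 0. Klrk1 (NKG2D), which binds stress ligands, stood at 901, 318, 438, 354 and 546 CPM. The control was highest, with log2 fold changes of -1.50 (-1.74 to -1.27), -1.04 (-1.36 to -0.73), -1.34 (-1.69 to -1.01) and -0.70 (-1.30 to -0.19). Klra4 (Ly49D, activating) stood at 926, 438, 685, 385 and 652 CPM and Klra8 (Ly49H, activating) at 944, 534, 617, 505 and 1075 CPM. Both were higher in the control than in either 2-week granuloma, and in silk at 4 weeks the log2 ratio of Klra8 was 0.20 (-0.23 to 0.58). The Klra genes are near-identical, so the split between them is uncertain. Klrc1 (NKG2A, inhibitory) stood at 157, 147, 167, 287 and 194 CPM, Klrd1 (its partner CD94) at 678, 869.7, 462, 641 and 669.6 CPM, and Tyrobp (the adaptor DAP12) at 2495, 1999, 1769, 1926 and 2678 CPM.

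Single cells differed in whether a UMI of Klra4 or of Klra8 was seen. In the control 55 cells had UMIs of both Klra4 and Klra8, 16 of Klra4 alone, 30 of Klra8 alone and 28 of neither. In sponge at 2 weeks these counts were 57, 20, 45 and 59, and in silk at 2 weeks 13, 14, 19 and 35. Such counts depend on depth and on how reads of the copies were assigned.

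Neither Tbx21 nor Eomes, the T-box factors that define the lineage, was called in any granuloma. Tbx21 (T-bet) stood at 78.7, 88.7, 119.5, 117 and 194 CPM from 31, 73, 30, 31 and 11 UMIs. Eomes was lowest in sponge at 2 weeks and highest in silk at 4 weeks, with log2 ratios to the control of -0.95 (-1.24 to -0.65), -0.22 (-0.59 to 0.13), -0.10 (-0.45 to 0.24) and 0.96 (0.48 to 1.40). Median-of-ratios scaling would add 0.34 to the first of these ratios and −0.34 to the last. Irf8, an interferon regulatory factor also expressed by NK cells, stood at 558, 831, 1928, 1583 and 2379 CPM and was called higher in all granulomas but sponge at 2 weeks. Tcf7 (TCF-1), a factor of early and resting lymphocytes, stood at 335, 136, 116, 151 and 88.1 CPM and was highest in the control. Klf2, which keeps lymphocytes quiescent and recirculating, stood at 652, 115, 422, 377 and 529 CPM, and sponge at 2 weeks was the granuloma called lower, with a log2 ratio of -2.49 (-2.85 to -2.15). Klf2 stood at 1112, 300.1, 479, 262 and 444 CPM in Mo-Mac/DC cells, highest in the control as well. Of 24 listed factors 21, 20, 20 and 15 were tested, 0, 2, 2 and 2 were higher (Irf8 and Bhlhe40) and 4, 1, 0 and 1 lower (Ets1, Id2, Klf2 and Zeb2 in sponge at 2 weeks, otherwise Tcf7), beside 1.44%, 2.71%, 3.32% and 3.04% of all genes higher and 1.38%, 1.79%, 1.11% and 5.02% lower.

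Few maturation markers were called, and the median of the mature list was below 0 in every granuloma. Of the list of mature NK genes, 1, 1, 2 and 2 of 17, 16, 17 and 15 tested were higher and 2, 0, 1 and 1 lower than in the control, beside the shares of all genes just given, with median log2 ratios of -0.82, -0.20, -0.23 and -0.03. For the immature list the medians were -0.07, 0.31, -0.44 and -0.10, on both sides of 0. Cd27, carried by less mature NK cells, stood at 180.2, 118, 223, 132 and 159 CPM and Itgam (CD11b), carried by mature ones, at 322, 121, 199, 271 and 194 CPM. Itgam is also a macrophage gene, at 431, 596, 534, 776 and 529 CPM in Mo-Mac/DC cells. Klrg1 gave 19, 28, 12, 9 and 8 UMIs and S1pr5, the receptor by which NK cells leave tissue, gave 13, 9, 7, 6 and 3. Of the ILC1 and tissue residence list, 3, 3, 3 and 2 of 12, 9, 9 and 7 tested were higher than in the control (all genes 1.44%, 2.71%, 3.32% and 3.04%), with Rgs1 and Rgs2 in all 4 granulomas and Gzmc in both sponge libraries, and its medians were 1.15, 0.61, 1.06 and -0.31. Neither Itga1 nor Cxcr6 was among them.

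Receptors for cytokines and for migration were measured too. Il2rb, the receptor chain shared by interleukin-2 and interleukin-15, stood at 1383, 1173, 2111, 2002 and 2449 CPM, and Il18r1 at 447, 193, 175, 249 and 229 CPM with the control highest. Cxcr4 stood at 216, 323, 386, 701 and 634 CPM and was called higher in both silk libraries. Of the cytokine receptor list 15, 16, 15 and 9 members were tested and none was called in either direction. Of all genes 1.44%, 2.71%, 3.32% and 3.04% were called higher and 1.38%, 1.79%, 1.11% and 5.02% lower. Shares this small leave little room for a call among so few members.

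**Figure D5:**
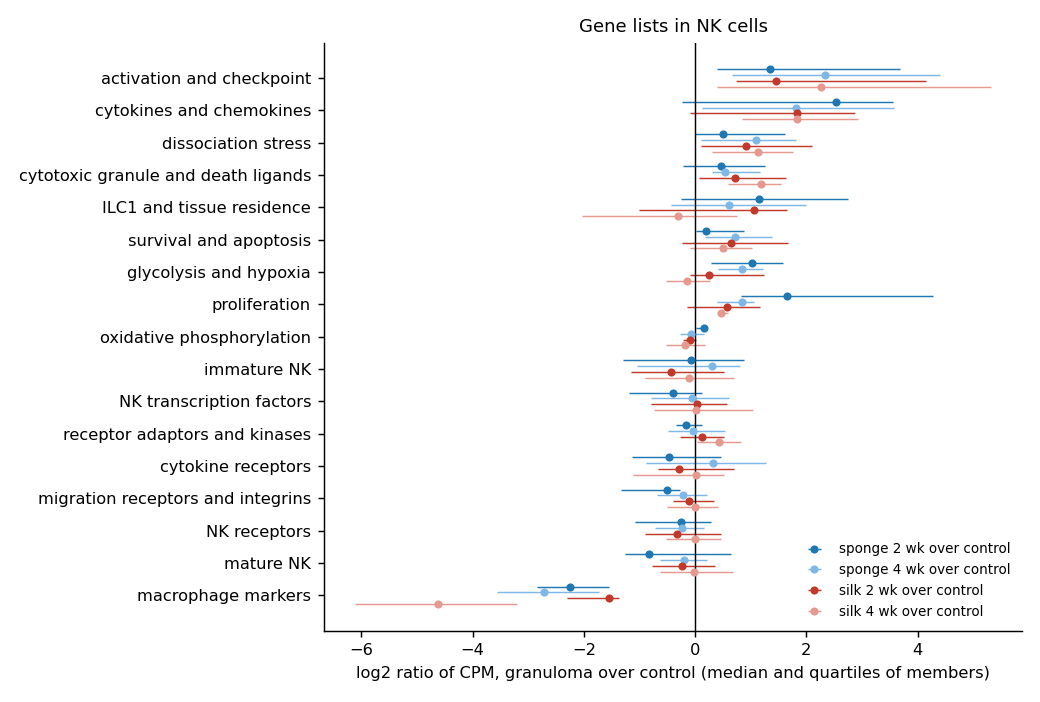
Points give the median, and lines the quartiles, of the log2 ratios over the measured members of 17 gene lists in the NK cells of each granuloma over the control. The activation list (medians 1.35 to 2.33) and the cytokine list (1.82 to 2.53) lay well above 0, the NK receptor list near 0 and the macrophage markers lowest. The NK receptor list includes the receptor genes by which the cells were chosen.

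Sponge at 2 weeks held most of the cycling NK cells. Cells with at least 2 UMIs over Mki67, Top2a, Birc5, Ube2c and Cdk1 numbered 0, 17, 4, 1 and 0, which made 9.39% (5.57 to 14.6) of NK cells in sponge at 2 weeks. The share was 5.97% (1.65 to 14.6) 2 weeks later, and silk had 1.23% (0.0313 to 6.69) at 2 weeks. The 0 of 129 cells in the control allow up to 2.82% and the 0 of 20 in silk at 4 weeks up to 16.8% (upper limit of the exact interval). Mki67, a nuclear protein of cycling cells, gave 0, 118, 1, 1 and 0 UMIs and was at least 18.8-fold higher in sponge at 2 weeks than in the control. That bound takes UMIs as independent, although the cycling cells were few. The topoisomerase gene Top2a gave 2, 175, 13, 4 and 1. Of the proliferation list 5 of 17 tested members were higher than in the control in sponge at 2 weeks, beside 1.44% of all genes, and 0 of 8, 8 and 2 in the others. The median cycling cell of sponge at 2 weeks carried 9132 UMIs against 3146 in the others, so depth differs along with the call.

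Within sponge at 2 weeks, Gzma, Prf1 and Eomes had lower CPM in the 17 cycling cells than in the other 164. The cycling cells were deeper. Their UMIs of Gzma (565 against 3237 in all), Prf1 (48 against 304) and Eomes (21 against 182) were not fewer per cell. Gzma stood at 3295 against 4966 CPM, Prf1 at 279.9 against 466 CPM and Eomes at 122 against 279 CPM. Gzmc stood at 181 against 983 CPM. Xcl1 stood at 1959 against 483 CPM, but 1 cycling cell held 251 of its 336 UMIs, and without the highest cell of each set the levels were 524 and 443 CPM. Gzmb stood at 1382 against 1052 CPM, and at 828 against 1011 CPM without those cells. Most of the difference in Xcl1, and the direction for Gzmb, thus rested on 1 cell.

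Some genes of glycolysis and hypoxia were higher in sponge NK cells at 2 weeks than in the control. Of 21 tested, 5 were called higher (Aldoa, Gapdh, Pgk1, Pkm and Vegfa) and none lower, beside 1.44% of all genes, against 1 of 14, 15 and 9 in the others, which was Vegfa each time. Gapdh stood at 401, 959.5, 689, 313 and 388 CPM and Pgk1 at 99.0, 418, 283, 204 and 70.5 CPM, each highest in sponge at 2 weeks and lowest in a silk library. Vegfa, the vessel growth factor, stood at 5.08, 216, 283, 611 and 493 CPM in NK cells, but Mo-Mac/DC cells carried 12.2, 274, 393, 514 and 299 CPM and NK cells held at most 1.18% of it. The list of oxidative phosphorylation had 16 to 19 members tested and none called, with median log2 ratios of 0.16, -0.07, -0.10 and -0.19. Of all genes 1.44 to 3.32% were called higher and 1.11 to 5.02% lower.

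The materials were compared at matched times. At 2 weeks 27 of 3685 genes (0.733%) were higher and 14 (0.38%) lower in silk than in sponge, and at 4 weeks 6 of 1500 (0.4%) were higher and 49 (3.27%) lower. With median-of-ratios scaling the 2-week split was 11 higher and 49 lower. In both comparisons together 0 of 1406 genes (0.0%) were higher and 1 (0.0711%), Gzmc, was lower. At 4 weeks the Gzmc call rested on the few sponge cells that carried it, as given above. Dusp2, a phosphatase that ends MAP kinase signals, led the named genes that leaned to silk at both times. It stood at 386, 504, 446, 1206 and 987 CPM, with log2 ratios of silk over sponge of 1.26 (1.04 to 1.47) and 1.15 (0.66 to 1.62), and its call held at 2 weeks alone. Icam1, the ligand of the integrin LFA-1, stood at 60.9, 145, 259, 392.1 and 546 CPM, with 1.44 (1.05 to 1.83) and 1.09 (0.41 to 1.72). Eomes, Serpinb9, Kdm6b and Nr4a3 leaned the same way at both times, with log2 ratios of silk over sponge of 0.84 and 1.18 for Eomes and 1.19 and 0.73 for Nr4a3. On the sponge side stood Gzmc, with -2.98 (-3.62 to -2.45) at 2 weeks, Stmn1, a tubulin-binding protein of cycling cells, at 43.1, 268, 151, 121 and 52.9 CPM, and Ran, a nuclear transport GTPase, at 183, 335, 331, 162 and 141 CPM.

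At 2 weeks silk NK cells had the lower level of cell-cycle genes, with 4 of 17 tested members of the proliferation list called lower (0.38% of all genes) and a median log2 ratio of -1.14. Without cycling cells that median was 0.52. Klf2 was higher in silk at 2 weeks by 1.71 (1.29 to 2.13) and at 4 weeks the ratio was 0.34 (-0.31 to 0.92). The neutrophil genes S100a8 and S100a9 stood at 652 and 859.6 CPM in silk NK cells at 2 weeks against 42.5 and 30.4 CPM in sponge. They were each seen in 11.1% of those cells, and 1 cell held 46.2% of the S100a8 UMIs.

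Time within a material was compared last. In sponge 19 of 3594 genes (0.529%) were higher and 20 (0.556%) lower at 4 than at 2 weeks, and in silk 9 of 1627 (0.553%) were higher and 92 (5.65%) lower. With the other scaling sponge had 10 higher and 34 lower. Over both, 0 of 1491 genes (0.0%) were higher and 7 (0.469%) lower. The genes that leaned to 4 weeks in both included Nr4a2, Dgat1 and Prf1. Nr4a2 had log2 ratios of 1.09 (0.86 to 1.30) and 1.17 (0.78 to 1.53) in sponge and silk. Irf8 was higher at 4 weeks in sponge by 1.22 (1.04 to 1.38) and in silk by 0.59 (0.30 to 0.87).

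The 7 genes lower at 4 weeks in both included AY036118, Gm42418, Lars2, Gzmc, Cxcl2 and Pf4. AY036118, a transcript of a ribosomal RNA locus, stood at 429, 545, 55.8, 483 and 0 CPM in NK cells, 460.3, 614, 47.2, 495 and 9.95 CPM in CD3 cells and 176, 351, 28.2, 251 and 7.34 CPM in Mo-Mac/DC cells. Lars2, a mitochondrial leucyl-tRNA synthetase, stood at 761, 486, 67.7, 667 and 52.9 CPM, and at 368, 359, 77.9, 364 and 80.7 CPM in Mo-Mac/DC cells. Both were therefore lower at 4 weeks in other classes as well. Which steps of preparation the 4-week libraries shared is not stated, and that part was not tested. Gzmc, whose levels were given above, and Gm42418 also had an NK level over that of Mo-Mac/DC cells at 2 weeks. In silk the Gzmc call rested on the few cells that carried it at 2 weeks. The 0 of 20 cells at 4 weeks sets no firm limit on that fold either.

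NK cells were last set beside the 907 CD3 cells of the same class, which the rule had split from them, so this is a description. At least 2-fold higher in NK cells in every library were 21 of 1541 genes (1.36%), and 15 (0.973%) were lower. These counts include genes by which the rule split the cells, namely Klre1, Klrb1c and Ncr1 among the higher and Cd3d, Cd3g and Cd3e among the lower. Beside the genes of the rule, the higher ones were led by Gzma, Klra8, Klra4 and Irf8, which stood at 24.1, 115, 60.9, 36.2 and 43.1 CPM in CD3 cells. Il7r, the interleukin-7 receptor, led the lower ones outside the CD3 genes, at 147, 47.4, 51.8, 26.4 and 35.2 CPM in NK cells and 1153, 329, 743, 657 and 816 CPM in CD3 cells. The CD3 cells included 47 with an NK receptor UMI and fewer than 2 UMIs over the gamma-delta genes (19, 18, 4, 4 and 2). They were not counted as NK cells and remained in the CD3 levels. Gzma stood at 2024 CPM in the 13 of them with exactly 1 CD3 UMI and at 839 CPM in the 34 with 2 or more.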

How the data were processed

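Single cells of the 5 libraries were captured with the Chromium 3' v3 kit, per the labels' protocols. The authors deposited whole-number UMI counts of 21617 genes in 41191 cells, with a class for each cell and, per the file headers, the percent of UMIs from mitochondrial genes, whose deposited values reached 25.0%. Cell Ranger 3.0.0, Seurat 3.0 and mm10 are named in the submitters' processing notes. The sources used here state no filter on cells, and doublets were not called again. UMI totals equalled the deposited ones in all 41191 cells.

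Counts were summed over the NK cells of each library with at least 20 of them and divided by their total (CPM). Log2 ratios had 0.5 counts added and a conditional binomial 95% interval, levels an exact Poisson interval, shares an exact Clopper-Pearson interval and differences of shares a Newcombe interval. A count of 0 allowed 3 counts. Genes entered a comparison with 20 UMIs in the higher library and were called at 2-fold after 100 CPM had been added. With 1 library in each group there was no test and no p-value. A median over a list needed at least 5 measured members. Cells were thinned to 1000 UMIs for shares of cells, leaving out 8 shallower cells in the control, 8 and 2 in sponge and 0 and 2 in silk.

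Genes were named by rank (in each comparison the 12 highest and the 12 lowest, ordered by their least change over its contrasts, leaving out predicted, ribosomal, mitochondrial and receptor-segment genes and genes higher in Mo-Mac/DC cells), by up to 4 members of each of 27 lists in each direction, and from a fixed set of NK genes. A few others, such as Ctla2a, Thy1 and Ly6c2 in Gzmc-bearing cells and the genes named because a count was small, were chosen after their values were seen. The members and the lists, which hold 425 genes of the count table, were chosen with earlier results of these data known. Alternatives changed the NK receptor limit, macrophage-bearing cells, Trac cells, the offset, the UMI filter, the scaling and the depth per cell. Leaving out cycling cells, leaving out silk at 4 weeks, keeping it below 20 cells and leaving out the cell with the most UMIs of a gene were chosen after seeing the data. The calling steps were checked on simulated data. Python 3.11.15, numpy 2.4.6, scipy 1.17.1, pandas 2.3.3 and matplotlib 3.10.9 were used. A few named genes are not reported here. Gene positions are from GENCODE M21 on GRCm38.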

Additional observations from a re-analysis of the deposited data

Results flagged for a closer look

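NK receptor transcripts also appeared outside the class NK/T, in cells that the comparisons above did not use. They were compared with the control in Mo-Mac/DC cells, the largest class. Among Mo-Mac/DC cells, 0.794% (59 of 7430) in sponge at 2 weeks, 0.972% (47 of 4834) in sponge at 4 weeks, 1.47% (111 of 7532) in silk at 2 weeks and 1.27% (14 of 1106) in silk at 4 weeks had at least 1 UMI of Ncr1, Klrb1c or Klre1. The control had 0.202% (16 of 7912, interval 0.116 to 0.328), and each granuloma stood above it. The difference was not tested. Mo-Mac/DC cells with 3 or more of these UMIs numbered 0, 1, 0, 1 and 0, so nearly all rested on 1 or 2 UMIs. In sponge at 2 weeks 4 of the 9 endothelial, 4 of the 14 fibroblast and 2 of the 3 myocyte cells with such a UMI had 3 or more.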

How the results depend on the processing

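The shares moved most with the NK receptor limit: at 2 or more UMIs NK cells were 1.26% of all cells and 33.5% of the class NK/T in sponge at 2 weeks, and 24.3% of that class in silk at 2 weeks. Of the 27 genes higher in every granuloma, 8 were called at 50 UMIs and 8 in thinned cells. Of the 31 lower genes the count was 9 without macrophage-bearing cells, 12 in thinned cells and 52 with an offset of 50 CPM. Genes higher in silk than in sponge at both times numbered 2 with that offset, 2 at 2 or more receptor UMIs and 1 without cycling cells. Genes lower in silk numbered 7 without macrophage-bearing cells, 3 without Trac cells, 3 without cycling cells, 5 with an offset of 50 CPM and 4 under median-of-ratios scaling. At 4 against 2 weeks, 1 gene was higher and 13 were lower with an offset of 50 CPM, 11 were lower under median-of-ratios scaling and 4 in thinned cells. Without silk at 4 weeks only 1 comparison remained of each pair: 27 genes higher and 14 lower in silk, and 19 higher and 20 lower at 4 weeks. Against the control 36 genes were then higher and 31 lower. Silk at 4 weeks held 17 cells at 2 or more receptor UMIs, 18 without Trac cells and 18 thinned, so these joint values kept it below the limit of 20 cells, a choice made after seeing the data.

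Without macrophage-bearing cells the log2 value of Apoe in silk over sponge at 2 weeks was −0.42, that of C1qb in sponge at 2 weeks over the control 0.11, and the macrophage marker median there 0.18. Without cycling cells Top2a stood at 0.000370 in silk over sponge at 2 weeks and 0.13 in sponge at 4 over 2 weeks. The proliferation list then had medians of −0.0621 in sponge at 2 weeks over the control and 0.52 in silk over sponge at 2 weeks. These turned in sign because the cells that carried the transcripts were left out. Of the 297 single-gene values 46 moved and 2 turned without macrophage-bearing cells, 39 moved under median-of-ratios scaling, 17 moved and 2 turned without cycling cells, and 30 moved without the cell with the most UMIs. For other settings the cause was not tested. No paired analysis was possible because each group had 1 sample. The 56751 UMIs of silk at 4 weeks limit its calls most.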

Other observations

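Survival genes split in direction. Of the list of survival and apoptosis genes, 0, 2, 2 and 1 of 14, 11, 13 and 7 tested members were higher in the NK cells of granulomas than in the control, and 1, Txnip, was lower in each, beside 1.44%, 2.71%, 3.32% and 3.04% of all genes higher and 1.38%, 1.79%, 1.11% and 5.02% lower. Pim1, a kinase that answers cytokine signals, stood at 309.6, 448, 948, 1361 and 899 CPM, lowest in the control. Bcl2l11 (BIM), which promotes apoptosis, stood at 254, 505, 653, 856 and 441 CPM, and Bcl2, which opposes it, at 203, 267, 442, 373 and 476 CPM.

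Genes of the type I interferon response were mostly too low to compare, with 9, 6, 6 and 5 of 22 tested. Ifitm3 was lower in every granuloma, at 936, 143, 75.7, 26.4 and 0 CPM, and Mo-Mac/DC cells of the control carried 2699.8 CPM of it. Receptor adaptors and kinases were called in 0, 1, 1 and 1 members higher and 0, 0, 1 and 1 lower of 18, 15, 16 and 11 tested, against the same shares of all genes. Txk, a kinase of T and NK cells, stood at 548, 668, 817, 799 and 952 CPM. For the list of migration receptors and integrins 0, 1, 1 and 1 of 20, 19, 17 and 14 tested were higher and 2, 1, 1 and 1 lower, against those shares again, and Ccr2, described above, was the member lower in every granuloma.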
